A study of Mus musculus with 4 samples.

Results

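The genes of DNA replication and S phase were followed in epithelial cells of the mouse small intestine. The list held 38 genes, chosen by function: replication licensing, helicase activation, polymerases, clamp and clamp loader, nucleotide supply, chromatin assembly and S phase entry. For each gene the probe set named for that gene alone with the highest mean over the 4 arrays was taken. Such a probe set existed for 37 of the 38 genes, out of 18193 genes in all, and Chaf1a had none. Of the 37, 35 were bright enough to enter the test, and Orc1 and Tyms were below the filter.

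The study compared mice lacking AP-1B, an epithelial clathrin adaptor that sorts proteins to the basolateral membrane, with heterozygous animals. Labels named 2 arrays AP-1B-/- (knockout 1 and 2) and 2 arrays AP-1B+/- (heterozygous 1 and 2), and no wild-type array was analysed here. All were from healthy adult C57BL/6J mice, 10 weeks of age and specific pathogen-free. Epithelium was loosened in a buffer with EDTA and picked off by needle, so villus and crypt cells and the lymphocytes between them could be in 1 sample. The labels did not say how many animals each array held, and the p-values cover only the spread between these 4 samples.

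Replication begins with licensing. The origin recognition complex, Cdc6 and Cdt1 load the ring of Mcm2 to Mcm7 onto DNA in G1 phase, and Cdc45 and the GINS complex turn that ring into an active helicase at the start of S phase. Primase and polymerase alpha then lay down primers, the clamp Pcna is loaded by replication factor C, and polymerases delta and epsilon copy the strands. Many of these genes are transcribed under E2F factors, which the retinoblastoma protein family holds in check until cyclin E and its kinase act. In the small intestine, dividing cells lie in the crypts, and cells on the villi have left the cell cycle.

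Signals are given as multiples of the array median, since all 4 medians lay between 0.996 and 0.998. They compare 1 probe set across arrays and not 1 gene with another. The arrays differed in their upper range, with 75th percentiles of 5.57 and 4.27 on knockout 1 and 2, against 4.13 and 5.54 on heterozygous 1 and 2. The targeted gene went against the labels of 2 arrays. Ap1m2, which encodes the mu1B subunit of AP-1B, had 2.49 and 22.3 on the arrays labelled knockout 1 and 2, against 19.9 and 4.33 on those labelled heterozygous 1 and 2. Its label difference was −0.28 ± 0.89 on the log2 scale (SE). Xist, the transcript of the inactive X chromosome, had 0.070 and 60.1 on knockout 1 and 2, against 0.349 and 30.3 on heterozygous 1 and 2, and Eif2s3y, a gene of the Y chromosome, had 24.1 and 0.051 on knockout 1 and 2, against 12.1 and 0.256 on heterozygous 1 and 2. Each label thus held 1 array of male and 1 of female pattern, which are not repeats of 1 animal. The contrast of knockout 1 with knockout 2 is also one of male with female pattern, and sex and array cannot be told apart within a label. Knockout 1 and heterozygous 1 had the same pattern. Every comparison below therefore follows the labels only, and all 4 arrays are shown.

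The replication genes were high on 1 array. Of 37 genes, 36 had their highest signal on knockout 1, and the exception was E2f1, which was highest on heterozygous 2. Over all 11326 genes kept, 42.6% were highest on knockout 1, 8.54% on knockout 2, 11.0% on heterozygous 1 and 37.8% on heterozygous 2. The median gene of the list had 2.71 times as much signal on knockout 1 as on knockout 2, 2.67 times as much as on heterozygous 1 and 2.11 times as much as on heterozygous 2. On knockout 1, 21 of the 37 genes were at least 2-fold above each of the other arrays, against 3.44% of all genes kept. No replication gene stood that far above the others on knockout 2, heterozygous 1 or heterozygous 2, where the shares of all genes kept were 0.23%, 0.486% and 0.203%. In bulk samples such as these, fewer cells of a type and less RNA per cell cannot be told apart.

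**Figure D1:**
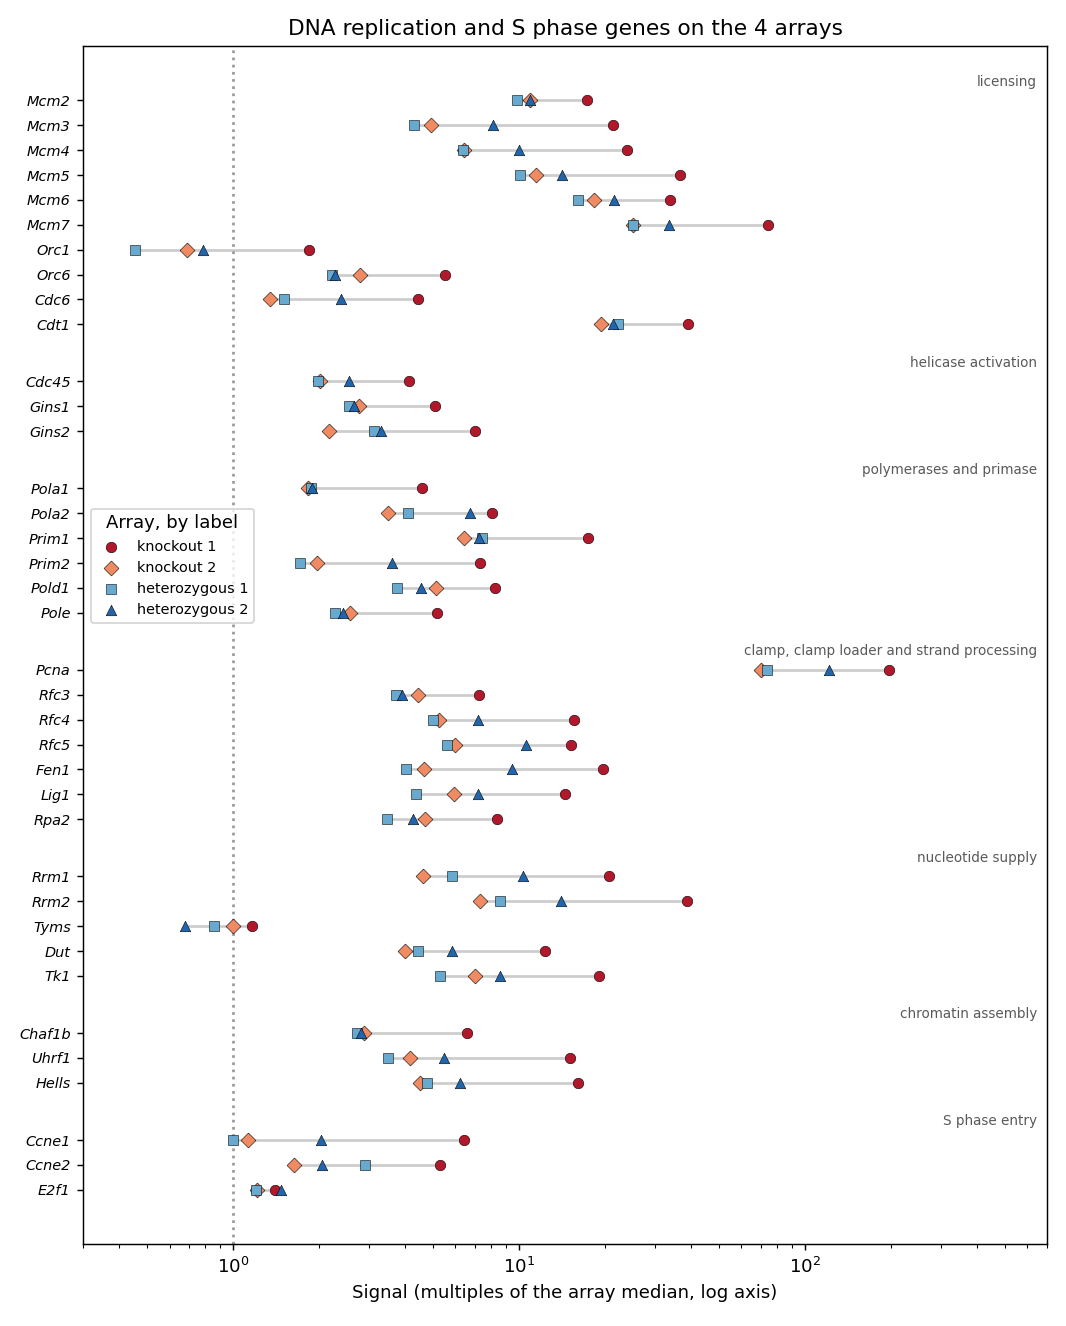
Signal of the 37 replication and S phase genes on each of the 4 arrays, in multiples of the array median on a log axis, grouped by role; each point is 1 array and the grey bar spans the 4. Knockout 1 is the rightmost point for 36 genes, and E2f1 is the exception.

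Licensing was the role with the most genes, 10, and all were highest on knockout 1. The Mcm ring, the core of the replicative helicase, was led by Mcm7. Its signal was 74.1 on knockout 1 and 25.1 on knockout 2, against 25.1 and 33.4 on heterozygous 1 and 2. Knockout 2 and heterozygous 1 were level, so the labels overlapped. Mcm7 averaged 49.6 ± 34.7 on knockout arrays and 29.2 ± 5.85 on heterozygous arrays (SD, n = 2 each), or 0.57 ± 0.63 by label on the log2 scale (difference ± SE; limma, adjusted p = 0.999868). The widest contrast in the ring was that of Mcm3, with 21.3 and 4.93 on knockout 1 and 2, against 4.31 and 8.11 on heterozygous 1 and 2. Mcm4 had 23.9 and 6.44 on the knockout arrays, against 6.38 and 10.03 on the heterozygous arrays. Mcm5 had 36.7 and 11.4 on the knockout arrays, against 10.1 and 14.1 on the heterozygous arrays. In each of these 3 genes knockout 1 was highest, heterozygous 2 came next, and the remaining arrays lay close together. Mcm6 kept that order in a narrower range, at 33.9 and 18.3 on the knockout arrays, against 16.1 and 21.4 on the heterozygous arrays.

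Mcm2 was the flattest of the ring, with 17.3 and 10.96 on knockout 1 and 2, against 9.81 and 10.89 on heterozygous 1 and 2. Both knockout values were above both heterozygous values, but knockout 2 and heterozygous 2 were nearly equal. A second, dimmer Mcm2 probe set had 12.8 and 5.10 on the knockout arrays, against 4.28 and 5.38 on the heterozygous arrays, and there the labels overlapped. The loading factors followed the ring. Cdc6, the ATPase that helps load it, had 4.43 and 1.35 on knockout 1 and 2, against 1.502 and 2.40 on heterozygous 1 and 2. Cdt1, the partner that brings the ring to the origin, had 38.9 and 19.4 on the knockout arrays, against 22.2 and 21.4 on the heterozygous arrays. Orc6, a subunit of the origin recognition complex, had 5.50 and 2.79 on the knockout arrays, against 2.21 and 2.27 on the heterozygous arrays. Orc6 had the lowest unadjusted p of the list, 0.135, with a log2 difference of 0.73 ± 0.46 (SE; limma). Orc1, the ATPase subunit of the same complex, was dim, at 1.85 and 0.689 on the knockout arrays, against 0.453 and 0.784 on the heterozygous arrays.

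The 3 genes of helicase activation had the lowest median ratio of knockout 1 to knockout 2 of the roles, 2.04, and all were highest on knockout 1. Gins2, a subunit of the GINS complex, had 7.01 and 2.18 on knockout 1 and 2, against 3.11 and 3.30 on heterozygous 1 and 2. Its means were 4.59 ± 3.42 on knockout arrays and 3.21 ± 0.131 on heterozygous arrays (SD, n = 2 each), or 0.28 ± 0.53 by label on the log2 scale (difference ± SE; limma, adjusted p = 0.999868). Knockout 1 was the highest and knockout 2 the lowest array for this gene. Gins1, another subunit, had 5.07 and 2.75 on the knockout arrays, against 2.55 and 2.65 on the heterozygous arrays. Cdc45, the helicase cofactor, had 4.13 and 2.02 on the knockout arrays, against 1.98 and 2.54 on the heterozygous arrays.

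Among the polymerases and primase, all 6 genes were highest on knockout 1. Prim1, the catalytic subunit of primase, had 17.4 and 6.43 on knockout 1 and 2, against 7.45 and 7.25 on heterozygous 1 and 2. It averaged 11.9 ± 7.78 on knockout arrays and 7.35 ± 0.138 on heterozygous arrays (SD, n = 2 each), or 0.51 ± 0.57 by label on the log2 scale (difference ± SE; limma, adjusted p = 0.999868). Its partner Prim2 had 7.30 and 1.96 on the knockout arrays, against 1.72 and 3.59 on the heterozygous arrays. Pola1, the catalytic subunit of polymerase alpha, had 4.58 and 1.83 on the knockout arrays, against 1.88 and 1.89 on the heterozygous arrays. In Pola1 the other three arrays were level and knockout 1 stood alone. Pola2, its accessory subunit, had 8.02 and 3.50 on the knockout arrays, against 4.10 and 6.77 on the heterozygous arrays, so heterozygous 2 came close to knockout 1. Pold1, the catalytic subunit of polymerase delta, had 8.24 and 5.12 on the knockout arrays, against 3.73 and 4.55 on the heterozygous arrays. Pole, the catalytic subunit of polymerase epsilon, had 5.17 and 2.56 on the knockout arrays, against 2.27 and 2.42 on the heterozygous arrays. For Pold1 and Pole both knockout arrays were above both heterozygous arrays.

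The clamp Pcna was the brightest probe set of the list. It had 197.1 and 70.4 on knockout 1 and 2, against 74.0 and 121.4 on heterozygous 1 and 2, so knockout 2 was the lowest of the 4. Pcna averaged 133.7 ± 89.6 on knockout arrays and 97.7 ± 33.6 on heterozygous arrays (SD, n = 2 each), or 0.31 ± 0.57 by label on the log2 scale (difference ± SE; limma, adjusted p = 0.999868). Fen1, the nuclease that trims the flaps of Okazaki fragments, had the widest contrast of its role. It had 19.7 and 4.64 on the knockout arrays, against 4.02 and 9.44 on the heterozygous arrays. Lig1, the ligase that seals those fragments, had 14.5 and 5.93 on the knockout arrays, against 4.35 and 7.20 on the heterozygous arrays. In both genes heterozygous 2 was second and heterozygous 1 lowest. The clamp loader subunits Rfc4 and Rfc5 shared that order. Rfc4 had 15.5 and 5.23 on the knockout arrays, against 5.02 and 7.18 on the heterozygous arrays. Rfc5 had 15.2 and 5.97 on the knockout arrays, against 5.61 and 10.6 on the heterozygous arrays. Rfc3, another subunit of the loader, was flatter, at 7.27 and 4.44 on the knockout arrays, against 3.72 and 3.89 on the heterozygous arrays. Rpa2, a subunit of the complex that coats single-stranded DNA, had 8.39 and 4.69 on the knockout arrays, against 3.46 and 4.28 on the heterozygous arrays.

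The genes of nucleotide supply ranged from a wide to a narrow contrast between the knockout arrays. Rrm2, the regulatory subunit of ribonucleotide reductase, had 38.8 and 7.32 on knockout 1 and 2, against 8.61 and 14.01 on heterozygous 1 and 2. The ratio between the knockout arrays was 5.29. Rrm2 averaged 23.1 ± 22.2 on knockout arrays and 11.3 ± 3.82 on heterozygous arrays (SD, n = 2 each), or 0.61 ± 0.73 by label on the log2 scale (difference ± SE; limma, adjusted p = 0.999868). Rrm1, the large subunit of the same enzyme, had 20.7 and 4.61 on the knockout arrays, against 5.85 and 10.3 on the heterozygous arrays. Tk1, the thymidine kinase of S phase, had 19.1 and 7.02 on the knockout arrays, against 5.30 and 8.56 on the heterozygous arrays. Dut, which clears dUTP, had 12.4 and 3.99 on the knockout arrays, against 4.44 and 5.85 on the heterozygous arrays. All 4 of these were at least 2-fold higher on knockout 1 than on any other array. Tyms, the thymidylate synthase, was near the array median, at 1.17 and 1.001 on the knockout arrays, against 0.859 and 0.678 on the heterozygous arrays. Its ratio between the knockout arrays was 1.17.

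Chromatin assembly was represented by 3 measured genes. Hells, a chromatin remodeller of dividing cells, had 16.1 and 4.52 on knockout 1 and 2, against 4.78 and 6.22 on heterozygous 1 and 2. It averaged 10.3 ± 8.19 on knockout arrays and 5.50 ± 1.02 on heterozygous arrays (SD, n = 2 each), or 0.63 ± 0.60 by label on the log2 scale (difference ± SE; limma, adjusted p = 0.999868). Uhrf1, which brings the maintenance methyltransferase to newly copied DNA, had 15.1 and 4.15 on the knockout arrays, against 3.50 and 5.45 on the heterozygous arrays. Chaf1b, a subunit of the histone chaperone CAF-1, had 6.57 and 2.88 on the knockout arrays, against 2.71 and 2.81 on the heterozygous arrays. For Chaf1b the values off knockout 1 lay within a narrow band.

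The genes of S phase entry disagreed with each other. Ccne1, which encodes cyclin E1, had 6.42 and 1.13 on knockout 1 and 2, against 0.997 and 2.02 on heterozygous 1 and 2. Its ratio of 5.69 between the knockout arrays was the highest of the 37 genes. Ccne2, which encodes cyclin E2, had 5.29 and 1.64 on the knockout arrays, against 2.89 and 2.04 on the heterozygous arrays. Ccne2 was the brightest of the 3 by its mean, and averaged 3.47 ± 2.58 on knockout arrays and 2.47 ± 0.600 on heterozygous arrays (SD, n = 2 each). Its log2 difference by label was 0.27 ± 0.52 (SE; limma, adjusted p = 0.999868). E2f1, a transcription factor for many of the other members, was dim and flat, at 1.40 and 1.21 on the knockout arrays, against 1.20 and 1.47 on the heterozygous arrays. Its other probe sets were below the filter.

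By label, the knockout mean was above the heterozygous mean in 36 of the 37 genes, with a median log2 difference of 0.56 and a range of −0.03 to 0.83. Over all 22519 probe sets kept, 50.7% were higher by label and the median was 0.0055. None of the 35 tested genes passed the limma test at an adjusted p under 0.05, where 0% of all probe sets were called, and none had an unadjusted p under 0.05 against 170 of all probe sets. The standard errors of the list ran from 0.44 to 0.73. In 36 of 37 genes the knockout arrays differed from each other by more than the label means differed. The median log2 difference of knockout 1 minus knockout 2 was 1.40, and that of heterozygous 2 minus heterozygous 1 was 0.41. The direction by label rested on knockout 1: without it, 12 of 37 genes were higher on the knockout array left, and the median was −0.17, the same as the median over all probe sets in that fit. Leaving out both arrays whose Ap1m2 signal went against their labels left knockout 1 and heterozygous 1, both of male pattern, where all 37 genes were higher on knockout 1 by a median of 1.38, with no replicates and no test, and 71.4% of all genes kept were higher. Without knockout 2 the median was 1.16, and 1 of 35 tested members, Ccne1, was called, with a log2 difference of 1.94 (limma, adjusted p = 0.0276). In that fit 1.07% of all probe sets were called, 56 of them higher and 184 lower by label, or 0.249% higher, so 1 member is not read as a result about the list.

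**Figure D2:**
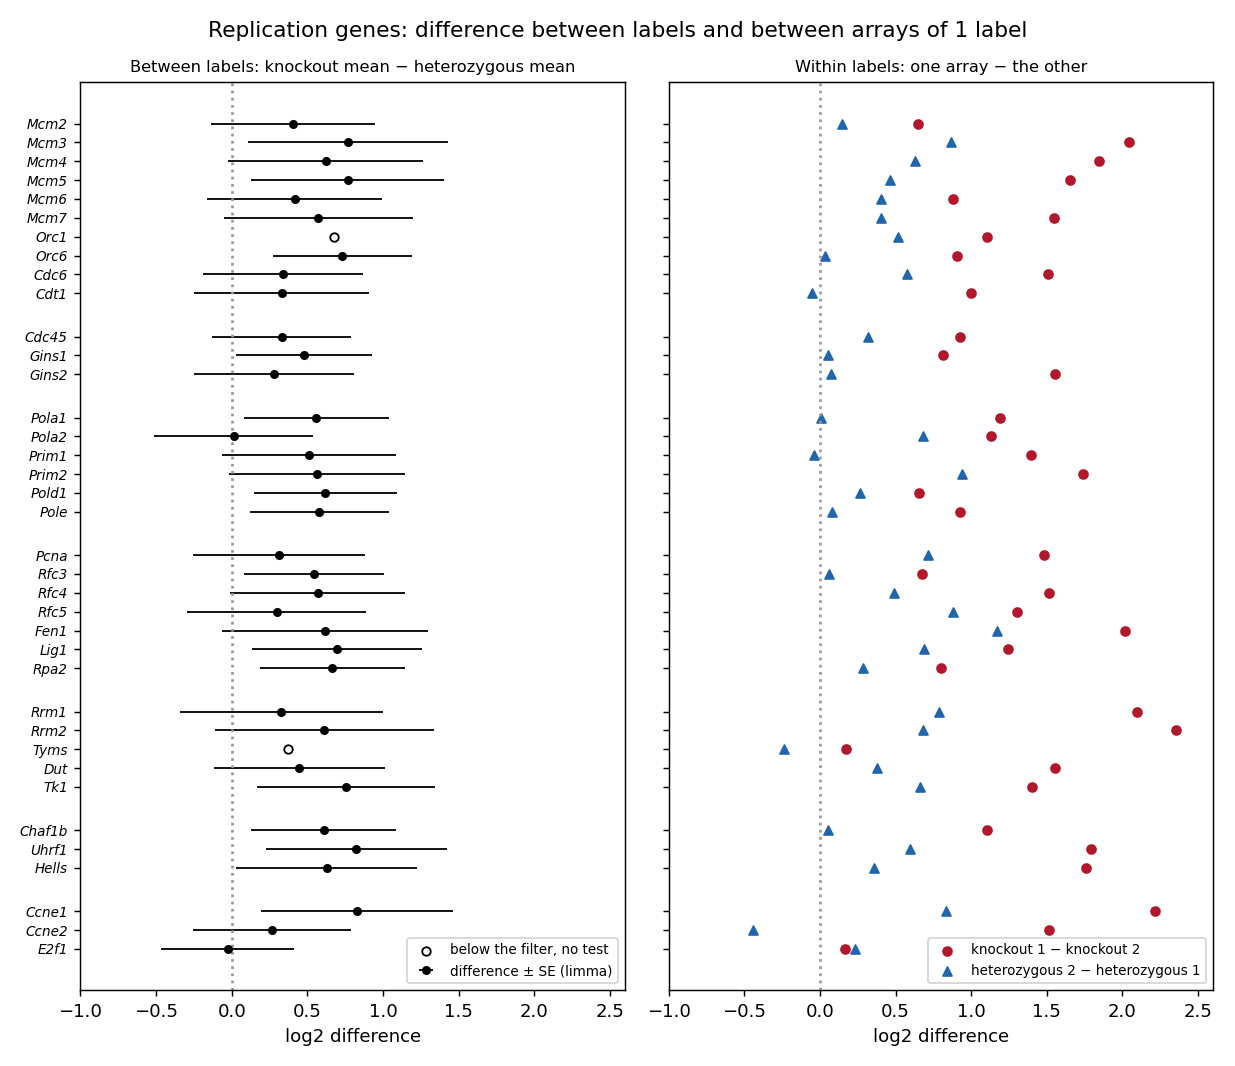
Log2 differences of the 37 genes between the labels (left, knockout minus heterozygous mean, bars are limma standard errors, open points were not tested) and between the 2 arrays of each label (right). The median is 0.56 on the left, and 1.40 for knockout 1 minus knockout 2 on the right.

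Both knockout arrays were above both heterozygous arrays for 9 members, namely Mcm2, Orc6, Gins1, Pold1, Pole, Rfc3, Rpa2, Tyms and Chaf1b. Over all genes kept, 5.51% had that arrangement. The reverse arrangement was found in 0 members and in 10.9% of all genes kept. In second kept probe sets the labels overlapped for Mcm2, Rfc3 and Rpa2, and did not for Pold1. The 9 members were all below the list's median ratio of knockout 1 to knockout 2: the ratio of knockout 1 to knockout 2 was 1.58 for Mcm2, 1.61 for Pold1 and 1.64 for Rfc3. Knockout 2 was within 1.5-fold of heterozygous 1 in 35 of 37 genes, with a median ratio of 1.07 and a range of 0.567 to 1.52. These 2 arrays were also the closest over all probe sets kept, of which 737 were 2-fold apart, the fewest of any pair. Knockout 2 was within 1.5-fold of heterozygous 2 in 25 genes, with a median ratio of 0.802 and a range of 0.446 to 1.48. Heterozygous 2 was above heterozygous 1 in 33 genes and above knockout 2 in 28, against 79.7% of all genes kept in each case, so both counts were near the share over all genes.

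The order knockout 1, heterozygous 2, knockout 2, heterozygous 1 was the most frequent, in 15 genes. A further 9 had the same first and second array, with heterozygous 1 above knockout 2, and 8 had knockout 2 in second place and heterozygous 1 last. Cdt1, Prim1 and Ccne2 had heterozygous 1 in second place. Tyms alone had both knockout arrays first and heterozygous 2 last, and E2f1 alone began with heterozygous 2.

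Part of the spread was shared with genes at large. Over all genes kept, knockout 1 was above knockout 2 by a median of 0.37 and above heterozygous 1 by 0.40 on the log2 scale, against 1.40 and 1.38 for the replication genes. Knockout 1 minus heterozygous 2 had a median of −0.02 over all genes kept, against 1.004 for the replication genes. Quantile normalization gives all arrays the same distribution, and after it the replication genes were 0.99 above knockout 2, 0.94 above heterozygous 1 and 0.94 above heterozygous 2 on knockout 1. Between the other arrays the list's medians then lay from −0.03 to 0.07, so heterozygous 2 no longer stood out in the medians. Gene by gene the order varied, and some genes, such as Pcna, still had heterozygous 2 in second place. Knockout 2 was then above heterozygous 2 in 17 of the 37 genes, and heterozygous 1 was above it in 19. Under that scaling 36 of the 37 genes were still highest on knockout 1, against 35.6% of all genes kept. The number at least 2-fold above each other array was 12, against 2.4% of all genes kept. These were Mcm3, Mcm4, Mcm5, Mcm7, Orc1, Pola1, Rfc4, Fen1, Rrm2, Uhrf1, Hells and Ccne1.

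**Figure D3:**
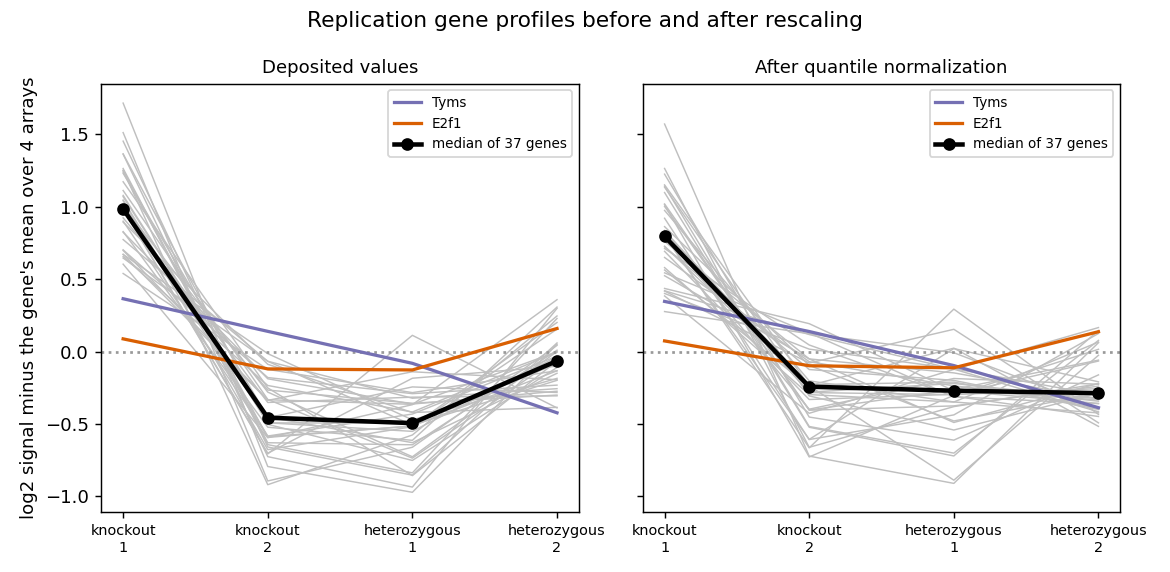
Profiles of the 37 genes over the 4 arrays as log2 signal minus the gene's own mean, for the deposited values (left) and after quantile normalization (right); grey lines are genes and the black line is their median. Knockout 1 is high in both panels, and the rise of the median at heterozygous 2 is clear only on the left. E2f1 and Tyms are drawn in colour, and E2f1 is the flatter of them.

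Other probe sets of the same genes were also read. The filter used the mean over all 4 arrays, so a high value on knockout 1 could itself help a dim probe set pass. Members had 45 further probe sets named for 1 gene alone, of which 28 passed the filter. Among those 28, 27 were highest on knockout 1, and 1 probe set of Cdc45 was highest on heterozygous 2. Of all genes kept, each by its brightest probe set, 42.6% were highest on knockout 1. The 17 dim ones were spread, with 7 highest on knockout 1, 6 on knockout 2 and 4 on heterozygous 1. The probe sets used for Mcm2, Mcm3, Mcm5, Mcm7, Gins2, Fen1, Rrm2 and Ccne1 have a suffix that marks probes shared with other transcripts. All 8 of these genes had another kept probe set without that suffix, and 11 of 11 such probe sets were highest on knockout 1.

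Since these genes moved together, the letters around their start sites were read. Windows run from 250 bases before to 50 after a RefSeq start on assembly GRCm38.p6, and 32 of the 38 genes had at least 1, giving 37 windows. Mcm4, Gins1, Gins2, Prim2, Pole and Ccne2 had none. For Orc1, Cdc6, Dut, Hells and E2f1 the RefSeq gene begins upstream of the window, so the start used there lies inside the gene. Mcm7, Fen1, Lig1 and Uhrf1 had more than 1 window, and for each of them at least 1 also lies inside the gene. E2F-type octamers were searched as TTTCCCGC, TTTCGCGC, TTTGCCGC and TTTGGCGC on both strands, and none contains another motif searched here. The 3 Mcm genes and Hells below hold matches, and Pcna, the brightest gene, holds none in this window. Sequences are given 5′ to 3′ on the gene's strand, with matches in capitals. The Mcm3 window is chr1:20820263-20820562 (minus strand), Mcm5 chr8:75109259-75109558 (plus), Mcm6 chr1:128359656-128359955 (minus), Hells chr19:38930740-38931039 (plus) and Pcna chr2:132253131-132253430 (minus).
Mcm3: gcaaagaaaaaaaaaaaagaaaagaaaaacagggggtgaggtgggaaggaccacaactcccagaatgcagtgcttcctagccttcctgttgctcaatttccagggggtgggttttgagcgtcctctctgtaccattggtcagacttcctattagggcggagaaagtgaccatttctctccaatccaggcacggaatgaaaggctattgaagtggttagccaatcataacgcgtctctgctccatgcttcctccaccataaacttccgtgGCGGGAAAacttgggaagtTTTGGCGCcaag
Mcm5: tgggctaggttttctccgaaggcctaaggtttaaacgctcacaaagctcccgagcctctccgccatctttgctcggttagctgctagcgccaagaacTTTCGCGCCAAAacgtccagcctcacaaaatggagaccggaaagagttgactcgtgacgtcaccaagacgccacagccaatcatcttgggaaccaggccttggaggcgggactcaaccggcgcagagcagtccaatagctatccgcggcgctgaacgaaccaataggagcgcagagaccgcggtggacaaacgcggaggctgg
Mcm6: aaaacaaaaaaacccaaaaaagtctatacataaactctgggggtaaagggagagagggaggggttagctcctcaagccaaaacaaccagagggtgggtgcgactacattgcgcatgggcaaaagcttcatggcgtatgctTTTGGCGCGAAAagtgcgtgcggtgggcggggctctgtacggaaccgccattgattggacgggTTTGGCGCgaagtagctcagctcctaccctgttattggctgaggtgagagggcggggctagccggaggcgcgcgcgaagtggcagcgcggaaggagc
Hells: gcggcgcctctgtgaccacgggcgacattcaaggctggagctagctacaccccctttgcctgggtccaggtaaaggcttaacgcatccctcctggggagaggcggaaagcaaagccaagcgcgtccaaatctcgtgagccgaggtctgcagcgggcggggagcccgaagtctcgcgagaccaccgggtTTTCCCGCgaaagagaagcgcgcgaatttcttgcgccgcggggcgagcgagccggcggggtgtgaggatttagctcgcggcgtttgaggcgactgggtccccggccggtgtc
Pcna: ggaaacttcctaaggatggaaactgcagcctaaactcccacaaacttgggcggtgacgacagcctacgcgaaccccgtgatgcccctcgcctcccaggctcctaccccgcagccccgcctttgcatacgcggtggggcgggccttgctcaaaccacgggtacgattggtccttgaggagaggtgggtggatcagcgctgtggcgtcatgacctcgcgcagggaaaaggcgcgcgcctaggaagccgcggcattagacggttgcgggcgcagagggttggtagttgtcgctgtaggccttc

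Mcm3 had its 2 matches downstream of the start, beginning at bases 20 and 39, where base 1 is the first base transcribed. Mcm5 had 2 overlapping matches that began at −153 and −149. Mcm6 had 3, at −110, −106 and −47, of which the first and second overlap. Hells had 1, at −62 from a start that lies inside the gene. Single or paired matches were also found for Mcm7, Orc1, Cdc6, Cdt1, Pola1, Pold1, Rfc3, Lig1 and Uhrf1, and of all 19 matches 11 began between −100 and +50. Those of Orc1, Cdc6, Lig1 and Uhrf1 were also in windows that lie wholly inside the gene. For Lig1 and Uhrf1 the window at the start of the RefSeq gene held 0 matches.

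An E2F-type octamer was present in 13 of the 37 windows, or 35.1%, against 2.26% of all 32851 windows and 3.88% of those of genes kept on the arrays. The share was 27.5% for other replication genes and 4.17% for mitosis genes. The base composition of the windows was near that of expressed genes, with a median GC content of 61.3% for members and 60.3% for genes kept. CCAAT, the core of the NF-Y site, was in 51.4% of member windows and 37.4% of all windows. The GC box GGGCGG was in 73.0% of member windows and 35.7% of all, but in 60.7% of those of genes kept. The CHR element TTTGAA, known from genes of mitosis, was in 3 of the 37 member windows, or 8.11%, against 12.1% of those of genes kept and 17.9% of all. It was in 22.5% of the windows of other replication genes and 70.8% of those of mitosis genes. The median ratio of knockout 1 to knockout 2 was 2.68 in 13 measured genes with a match, with a range of 1.61 to 4.32, and 2.63 in 18 without, with a range of 1.16 to 5.69. E2f1, whose window lies inside the gene, was counted among the 18 and set the low end of 1.16. These matches describe letters, and no binding was measured.

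**Figure D4:**
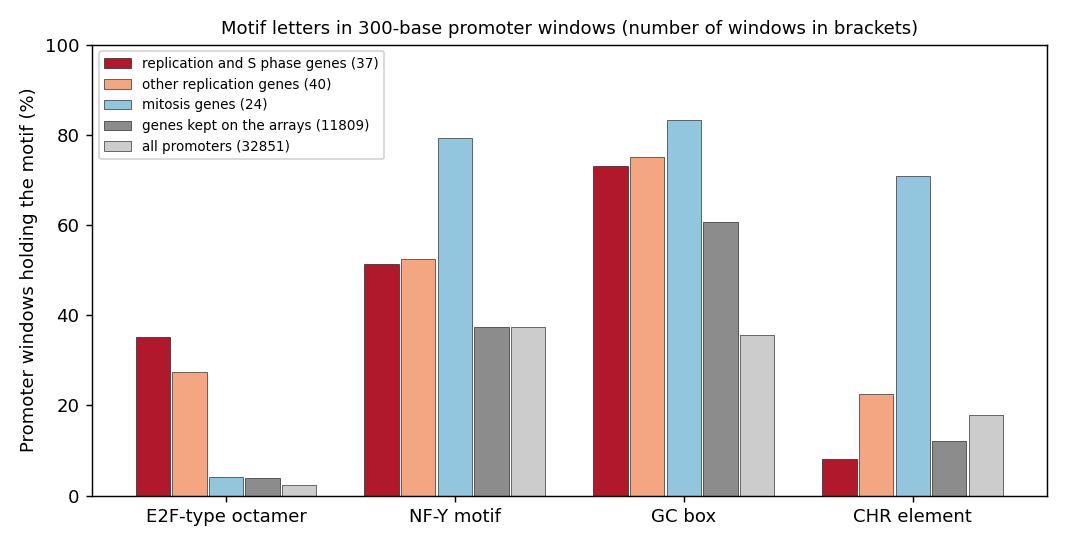
Share of promoter windows of 300 bases that hold each motif, in percent, for 5 sets of genes; brackets give the number of windows. The E2F-type octamer is in 35.1% of the windows of the replication and S phase genes and in 2.26% of all windows, and the CHR element is in 8.11% and 17.9%.

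Most genes of the same process outside the list were also highest on knockout 1. Of 39 further replication genes with a probe set, 33 were higher by label and 6 lower, 0 passed the test, and 35 were highest on knockout 1. Ccna2, the cyclin of S phase and G2, had 46.9 and 10.1 on knockout 1 and 2, against 8.55 and 14.1 on heterozygous 1 and 2. Top2a, the topoisomerase that untangles copied DNA, had 36.5 and 13.2 on the knockout arrays, against 13.0 and 18.8 on the heterozygous arrays. Rpa1, the large subunit of the single-strand binding complex, had 43.3 and 16.7 on the knockout arrays, against 19.8 and 22.8 on the heterozygous arrays. Knockout 1 was highest in all 3. The exceptions were Orc3, Gmnn, Pold4 and Ticrr, which were highest on heterozygous 2. Gmnn, which encodes the licensing inhibitor geminin, had 27.7 and 17.5 on the knockout arrays, against 17.5 and 27.8 on the heterozygous arrays. Mitosis genes had a like profile, with 26 of 26 highest on knockout 1 and 26 higher by label, 0 of them past the test. Cdc20, an activator of the anaphase-promoting complex, had 72.2 and 17.3 on the knockout arrays, against 13.9 and 23.9 on the heterozygous arrays. Crypt stem cell genes were divided. Of 12 measured, 5 were highest on knockout 1 and 5 on knockout 2, and Olfm4, a marker of crypt base cells, had 105.8 and 116.8 on the knockout arrays, against 122.3 and 88.6 on the heterozygous arrays.

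Markers of other cells also differed between the arrays. The 10 T cell markers measured summed to 13.8 and 282.9 on knockout 1 and 2, against 460.2 and 92.7 on heterozygous 1 and 2, and 9 of the 10 were lowest on knockout 1. The 11 myeloid markers summed to 39.1 and 59.3 on the knockout arrays, against 119.5 and 43.1 on the heterozygous arrays. Of the 11, 7 were lowest on knockout 1, and Cd14 was highest there. The array with the highest replication signals thus had the lowest sums of both lists. The 10 intestinal epithelium markers summed to 3237 and 1902 on the knockout arrays, against 2048 and 2848 on the heterozygous arrays. In the deposited values 7 of the 10 were highest on knockout 1, and after quantile normalization 2 were. The 13 absorptive enterocyte markers summed to 4904 and 4454 on the knockout arrays, against 5329 and 5143 on the heterozygous arrays. That sum was carried by its brightest genes. Of the 13, 3 were highest on knockout 1 (Fabp1, Alpi and Rbp2) and 5 were lowest there. Fabp1, the brightest, had 910.4 and 582.5 on the knockout arrays, against 707.4 and 769.5 on the heterozygous arrays. Of the 5 lowest, the 4 with a wide contrast are given in turn, chosen after their values were seen. The other, Mttp, was closer to level, at 280.1 and 296.8 on the knockout arrays, against 312.9 and 385.7 on the heterozygous arrays. Lct, the lactase of the brush border, had 3.97 and 236.8 on the knockout arrays, against 311.9 and 82.3 on the heterozygous arrays. Anpep, a brush border peptidase, had 46.8 and 190.3 on the knockout arrays, against 203.1 and 137.2 on the heterozygous arrays. Slc5a1, a sodium and glucose transporter, had 119.2 and 308.2 on the knockout arrays, against 312.0 and 280.7 on the heterozygous arrays. Slc15a1, a peptide transporter, had 9.03 and 33.4 on the knockout arrays, against 33.6 and 29.0 on the heterozygous arrays. Lct, Anpep, Slc5a1 and Slc15a1 were highest on heterozygous 1, and knockout 1 was below the other arrays by more than 2-fold. Mttp did neither. Pancreatic acinar markers, 8 in number, summed to 31.2 and 109.6 on the knockout arrays, against 11.3 and 40.8 on the heterozygous arrays. Cela1 alone gave 27.7 of the sum on knockout 1 and 8.63 of that on heterozygous 1. It was highest on knockout 1, and the other 7 were highest on knockout 2. B and plasma cell markers, 8 in number, summed to 280.7 and 252.0 on the knockout arrays, against 629.7 and 249.9 on the heterozygous arrays. Igha gave most of each sum, at 236.7 and 198.9 on the knockout arrays, against 413.3 and 203.6 on the heterozygous arrays. The 10 stromal markers summed to 29.5 and 27.1 on the knockout arrays, against 24.5 and 19.4 on the heterozygous arrays. No marker was listed at 0 on any array. The part of these cell types, and of sex, in the replication signals was not tested.

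**Figure D5:**
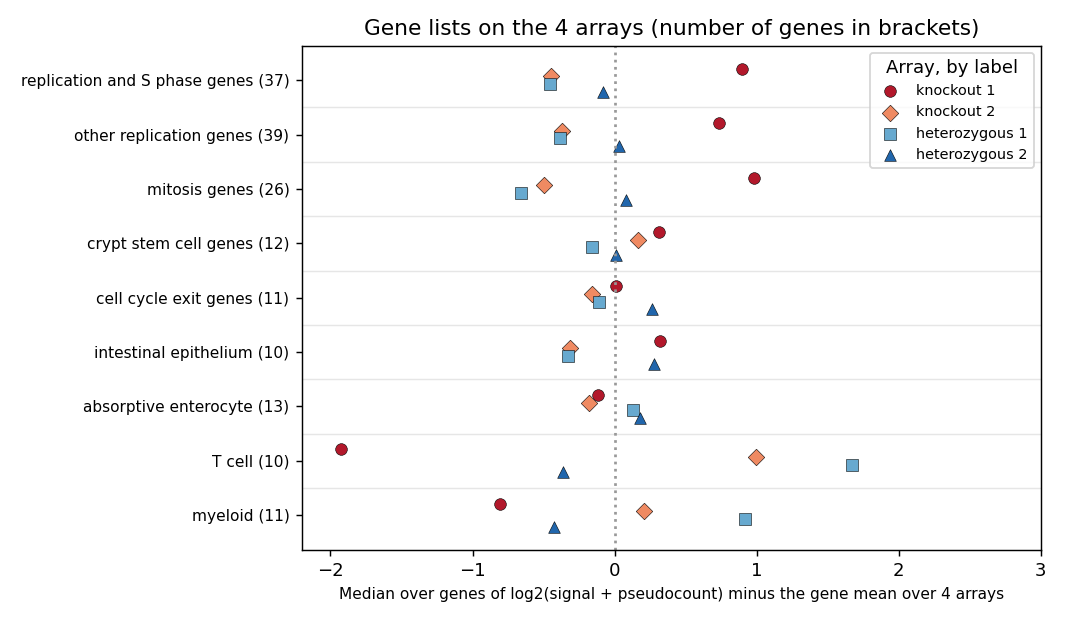
Median over the genes of each list of log2(signal + pseudocount) minus the gene's own mean over 4 arrays; each point is 1 array and brackets give the number of genes. Replication and mitosis genes are highest on knockout 1, which has the lowest T cell and myeloid values.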

How the data were processed

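The 4 arrays were deposited as linear intensity values, 1 per probe set, made with MAS5 per the submitters' processing notes, of a version not given in the sources used here. A rescaling of every array to a median of about 1 is seen in the values and is not stated. The authors' platform annotation named 1 gene for 34945 of 45037 probe sets, several for 932 and none for 9160; 37 of 37 members matched RefSeq. Values were taken as log2(value + 0.32), the 25th percentile of all values as pseudocount, which understates differences of dim probe sets. The 22519 probe sets whose mean reached 0.983, the median of such means, were compared by label with limma 3.58.1 in R 4.3.3 (lmFit, then eBayes with trend; Benjamini-Hochberg; threshold 0.05). Whole-gene shares used the 11326 genes kept, each by its brightest probe set. An exact two-sided permutation test over 4 arrays could reach p = 0.333 at best and was left out. At most 0.144% of probe sets had equal values on any pair of arrays.

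Members and lists were chosen with earlier results of these data known. All members may be named; full statistics go to the member with the highest mean of each role and to any past the threshold, and other lists give up to 4 of their brightest genes and the exceptions. Ccne1, Orc6, E2f7, E2f8, Lct, Anpep, Slc5a1, Slc15a1 and Mttp are given beyond that rule, chosen after their values were seen. Pseudocount, filter, scaling, trend, probe set choice, replicate block and each array left out were varied. Only 4 arrays limit the precision, and no detection calls were used here.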

Additional observations from a re-analysis of the deposited data

How the results depend on the processing

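With 2 arrays per label, the label comparison is limited by the spread between arrays of 1 label, and no detection calls give signal over background. Other pseudocounts, filters, scalings, the fit without the trend and the mean of probe sets left the direction by label as it was, with 35 or 36 of 37 members higher by label, and left 0 members called. The number of probe sets called was 0 in these settings, except 1, not a member, among the brightest 25%. With the replicate number as a replicate block 0 probe sets were called. The replicate number goes with the sex pattern of the arrays, but the deviations of same-numbered arrays correlated at −0.51, so the numbers were not taken as pairs, and a block of crossed numbers, added after seeing the data, also called 0. Leaving out 1 array at a time moved most values, and the lone array of a label was then assumed to vary like those of the other. Probe sets called ran from 0 to 240, with 24 without knockout 1 and 240 without knockout 2, and members called from 0 to 1. Members higher by label ran from 12 to 37, and their median log2 difference from −0.17 to 1.16. The log2 difference ran from −0.20 to 1.35 for Mcm7, −0.50 to 1.06 for Gins2, −0.18 to 1.21 for Prim1 and −0.43 to 1.05 for Pcna, which was also −0.04 without heterozygous 1. It ran from −0.57 to 1.79 for Rrm2, −0.25 to 1.51 for Hells and −0.49 to 1.03 for Ccne2. The lower ends were without knockout 1 and the upper without knockout 2. Without knockout 1 the count of members highest on it has no value.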

Other observations

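The E2F and RB family, which controls many replication genes, did not share their profile as a list. Of 12 genes measured, 6 were higher by label and 6 lower, 0 passed the limma test, and 6 were highest on knockout 1, 5 on heterozygous 2 and 1 on heterozygous 1. Among all genes kept, 42.6% were highest on knockout 1 and 37.8% on heterozygous 2, so these counts were near those shares. On knockout 1, 3 of the 12 were lowest. Tfdp1, the dimer partner of E2F proteins, had 38.9 and 13.7 on knockout 1 and 2, against 11.3 and 20.0 on heterozygous 1 and 2, the most frequent order among the replication genes, held by 15 of 37. Rb1, the retinoblastoma protein that holds E2F in check, was lowest on knockout 1, at 22.1 and 28.8 on the knockout arrays, against 30.5 and 35.6 on the heterozygous arrays. Rbl1, of the retinoblastoma protein family, was highest on heterozygous 2, at 10.9 and 8.28 on the knockout arrays, against 8.85 and 11.35 on the heterozygous arrays. E2f5, an E2F family member known as a repressor, had 7.53 and 9.86 on the knockout arrays, against 11.1 and 10.1 on the heterozygous arrays. The repressors E2f7 and E2f8, named after their values were seen, were highest on knockout 1. E2f7 had 3.48 and 2.10 on the knockout arrays, against 1.87 and 1.64 on the heterozygous arrays. E2f8 had 12.1 and 4.65 on the knockout arrays, against 1.89 and 3.83 on the heterozygous arrays, with a log2 difference of 1.37 ± 0.55 (SE; limma, unadjusted p = 0.0271, adjusted p = 0.999868), the highest of the 12.

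Genes linked to cell cycle exit had 0 of 11 highest on knockout 1, against 42.6% of all genes kept, and 2 of 11 lowest on it. By label 2 were higher and 9 lower, with a median log2 difference of −0.18 and 0 past the test. Tob1 and Btg1, the brightest of the 11, were not lowest on knockout 1. Tob1 had 99.25 and 92.25 on the knockout arrays, against 92.19 and 144.7 on the heterozygous arrays. Btg1 had 80.3 and 75.8 on the knockout arrays, against 94.2 and 121.0 on the heterozygous arrays. Ccng2, a cyclin of resting cells with the widest label difference of the 11, had 32.5 and 54.4 on the knockout arrays. Its heterozygous values were 80.3 and 66.8. Cdkn1a, the kinase inhibitor p21, was nearly level, at 60.9 and 61.3 on the knockout arrays, against 62.5 and 54.7 on the heterozygous arrays.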
